A study of Mus musculus with 18 samples.

Results

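The hypoxia-inducible factor (HIF) genes and the genes of the oxygen sensors that control them were followed in brain, retina and choroid of mice. The 8 genes were taken by symbol from the tables of the 3 tissues, which list 14411 genes in all. They are Hif1a, Epas1 and Hif3a (the alpha subunits), Arnt (their partner), Egln1, Egln2 and Egln3 (the prolyl hydroxylases) and Vhl. Brain and Retina list all 8. Choroid lists 6, and Hif3a and Egln3 were not analysed there.

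All mice were Cdh5(PAC)-cre/ERT2+; NuTRAP+ and had received tamoxifen, so Inputs and pull-downs share genotype and treatment. Cdh5(PAC)-cre/ERT2 is a recombinase under the promoter of the endothelial cadherin gene Cdh5, active only with tamoxifen, and NuTRAP then places a GFP tag on ribosomes of the recombined cells. Ribosomes were pulled down with an antibody to GFP (translating ribosome affinity purification). Each tissue gave 3 Input libraries (lysate RNA set aside before the pull-down) and 3 Positive libraries (RNA on the beads), which makes 6 groups and 18 libraries. The model reports on cells in which the Cdh5 promoter was active while tamoxifen acted, whatever their later type. The sources used here give no age, sex or tamoxifen dose. The labels speak of biological replicates and do not say how many animals entered each, so a p-value here reflects only how much these libraries vary, and part of that variation may be technical.

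HIF is a transcription factor made of an oxygen-labile alpha subunit and the stable subunit ARNT. In the presence of oxygen the EGLN enzymes hydroxylate prolines of the alpha subunit, the VHL protein binds the hydroxylated protein, and it is ubiquitinated and degraded. When oxygen is scarce the alpha subunit persists, and the dimer raises transcription of genes for glucose uptake, glycolysis and vessel growth. Because this control acts on protein stability, RNA levels describe the supply of transcripts and not the activity of the factor. Epas1, which encodes the alpha subunit HIF2A, is known for its expression in endothelial cells.

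The sites on which the sensors act are shown because the members meet there. They were read from the longest coding frame of GENCODE mouse transcripts (annotation of GRCm38, the assembly of mm10). The 6 codons of the motif LXXLAP, in which the last residue is the hydroxylated proline, are in capitals within coding bases from 5′ to 3′.
Hif1a, proline 402 of 836 residues: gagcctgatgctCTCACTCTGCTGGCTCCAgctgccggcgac
Hif1a, proline 577: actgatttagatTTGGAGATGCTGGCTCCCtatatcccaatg
Epas1, proline 405 of 874 residues: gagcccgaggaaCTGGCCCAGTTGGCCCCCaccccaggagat
Epas1, proline 530: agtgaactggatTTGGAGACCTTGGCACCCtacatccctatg
Hif3a, proline 489 of 664 residues: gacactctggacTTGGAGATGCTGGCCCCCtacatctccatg
Hif1a and Epas1 each hold 2 such motifs, and the Hif3a transcript read here holds 1.

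The promoters of the sensor genes are shown because the 3 sensors differed together in Brain, described further on. In RefSeq promoter windows (GRCm38.p6, 250 bases before to 50 after the gene start; 7 of the 8 genes matched) the core letters of the HIF response element, ACGTG, were searched on both strands. A window with CACGTG counts on both strands, since it reads the same in each direction. The motif is in capitals, on the strand of the gene, 5′ to 3′.
Egln1, chr8:124949306-124949334, minus strand, motif at -68: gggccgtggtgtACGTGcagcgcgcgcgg
Egln2, chr7:27166834-27166862, minus strand, motif at -48: agcctcctgtcaACGTGcggttcgcgcac
Egln3, chr12:54204087-54204115, minus strand, motif at -229: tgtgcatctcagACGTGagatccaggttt
Hif1a, chr12:73907785-73907813, plus strand, motif at -70: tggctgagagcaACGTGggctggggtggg
ACGTG stood in 19.7% of 32544 distinct windows of the mouse, the related letters GCGTG in 32.6%, and either in 44%. The Arnt window held 1 GCGTG, the Hif3a window held 2, and neither held ACGTG. The Egln1 window also held 1 GCGTG, and the 2 Egln2 windows held 4 together. The Vhl window held neither set of letters. Of ACGTG, the Hif1a window held 3 copies, the Egln1 and Egln3 windows 1 each, and the 2 Egln2 windows 3 together. For Hif1a and Egln2 these include a CACGTG counted on both strands. Only 1 copy per gene is shown. A match describes letters and is no evidence that a factor binds there.

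On mm10 the genes lie at chr12:73907867-73947530 on the plus strand (Hif1a), chr17:86753864-86833410 plus (Epas1), chr7:17030993-17062427 minus (Hif3a) and chr3:95434390-95497239 plus (Arnt). The sensors lie at chr8:124908587-124949254 minus (Egln1), chr7:27158658-27166802 minus (Egln2) and chr12:54178981-54203874 minus (Egln3), and Vhl at chr6:113624021-113631633 plus.

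The estimated counts of all listed genes ran per library from 28128866 to 43219831 in Brain Input and from 31111437 to 40112343 in Brain Positive. In Retina they ran from 20915469 to 36157140 (Input) and from 12325658 to 26069649 (Positive), and in Choroid from 2018126 to 10031274 (Input) and from 713733 to 2717264 (Positive). The 12 endothelial markers rose in Positive over Input in Brain (12 of 12) and Retina (12 of 12), and all 11 listed ones in Choroid, where Sox17 is not listed. Markers of each labelled tissue were listed for it: 8 of 8 neuronal markers in Brain and 10 of 10 photoreceptor markers in Retina. Choroid listed 5 of 5 melanocyte and 6 of 7 pigment epithelium markers. Listing alone does not define a tissue, since Retina also listed 8 of 8 neuronal and 6 of 7 pigment epithelium markers. The latter summed to 79.65 to 160.4 CPM in Retina Input and 23340 to 39080 in Choroid Input. Photoreceptor markers summed to 33450 to 41720 CPM in Retina Input and 29080 to 48630 in Retina Positive, with overlapping ranges, although 5 of the 10 passed as lower in Positive. CPM here are TMM-scaled counts relative to the total of the listed genes. In bulk RNA, fewer cells of a type and less RNA per cell cannot be told apart.

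In Brain, 5 of the 8 genes were higher in Positive than in Input and 0 were lower, led by Epas1 and Egln3. Of all 13957 genes tested in Brain, 38.3% were called higher and 39.7% lower at an adjusted p under 0.05 (edgeR's quasi-likelihood test, Benjamini-Hochberg). This main test leaves out the pairing of each Positive with the Input of the same lysate, and paired fits are given as alternatives. The median log2 fold change of the 8 was 0.35, beside -0.018 over all genes. In Retina, Epas1 was the 1 member called higher and 0 were lower, where 15.3% of 12827 genes were higher and 10.8% lower, with medians of -0.04 for the 8 and -0.034 for all genes. In Choroid, Epas1 was higher and Hif1a lower among 6 members, where 16.3% of 7569 genes were higher and 20.2% lower, with medians of -0.25 for the 6 and -0.013 for all genes. The counts of 0 lower in Brain and Retina stayed at 0 without adjustment of p (threshold 0.05) and by DESeq2. A gene entered a table when its estimated count was at least 50 in all Inputs or all Positives. Hif3a in Brain and Arnt, Egln2 and Vhl in Choroid met this in Input alone. This limits what their Positive values can show, which were lower on average except for Arnt (log2 fold change 0.11).

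**Figure D1:**
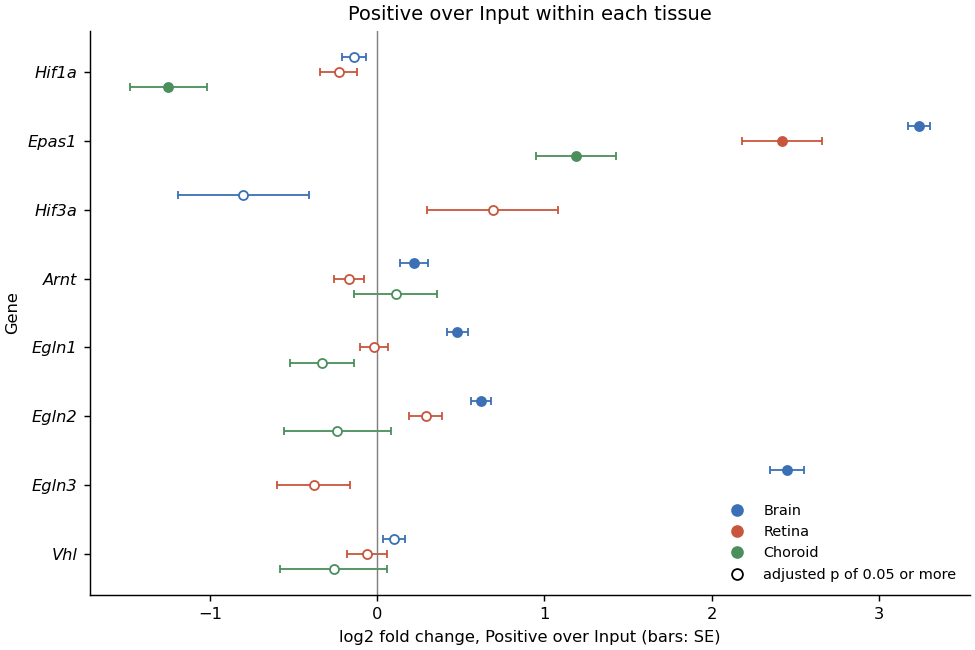
Fitted log2 fold change of Positive over Input for each gene in Brain, Retina and Choroid, with bars of 1 SE and open symbols where the adjusted p was 0.05 or more. Epas1 lies to the right in every tissue, from 1.19 in Choroid to 3.24 in Brain, and Egln3 at 2.45 in Brain alone among the 2 tissues that list it.

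Epas1, the HIF2A gene, was the member with the largest enrichment in each tissue. In Brain it stood at 158, 146 and 152 CPM in the Inputs and at 1490, 1361 and 1451 CPM in the Positives. All Positives lay far above all Inputs, and the log2 fold change was 3.24 ± 0.064 (SE), or 9.44-fold (adjusted p = 1.74e-10, edgeR). In Retina it stood at 226, 243 and 225 CPM in the Inputs and at 946, 1006 and 1768 CPM in the Positives. Again the groups did not overlap, and Retina Positive 3 was the highest. The log2 fold change in Retina was 2.42 ± 0.24 (5.36-fold; adjusted p = 0.000254, edgeR), and between 2.09 and 2.62 in the refits of this comparison, with Epas1 past the threshold in all 12. In Choroid the Inputs were already high at 1825, 1409 and 1858 CPM, and the Positives stood at 4673, 3362 and 3597 CPM. The groups were apart, and the log2 fold change was 1.19 ± 0.24, or 2.29-fold (adjusted p = 0.00221, edgeR).

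Endothelial markers rose in Positive together with Epas1, and by more. Their median log2 fold change was 5.24 in Brain, 6.34 in Retina and 2.86 in Choroid, beside 3.24, 2.42 and 1.19 for Epas1. Retina was thus above Brain for the markers and below it for Epas1. Their summed level was 157 to 186 CPM in Brain Input and 5441 to 6017 in Brain Positive, and 1527 to 2494 in Choroid Input and 13220 to 15200 in Choroid Positive. In Retina it was 95.7 to 117 CPM in the Inputs and 2746, 2901 and 5620 in Positives 1, 2 and 3, so the library with the highest Epas1 also had the highest endothelial sum. Per CPM of Cdh5, Epas1 stood between 3.59 and 4.25 in Brain Positive, 4.04 and 4.93 in Retina Positive, and 2.66 and 3.14 in Choroid Positive. The same ratio was 13.7 to 16.1 in Brain Input, 58.4 to 113 in Retina Input and 8.71 to 13.4 in Choroid Input. In every tissue this ratio was lower in Positive than in Input, and it varied far less between the Positives than between the Inputs. Fibroblast markers also rose in Brain Positive (7 of 7, summed 125 to 136 CPM in Input and 1559 to 2343 in Positive). The 8 mural markers listed in Brain were mixed, with 2 higher and 5 lower. Their sum was 180 to 192 CPM in Brain Input and 1170 to 1593 in Brain Positive. In Retina the mural sums overlapped, at 863 to 1054 and 693 to 999 CPM. The part of fibroblast and mural RNA in the Brain results was not tested.

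Hif1a, the gene of the widely expressed alpha subunit, took another course. In Brain it stood at 76.8, 78.3 and 88.8 CPM in the Inputs and at 71.9, 73.1 and 75.8 CPM in the Positives. The Positives were all slightly below the Inputs, with a log2 fold change of -0.14 ± 0.072 that missed the threshold (adjusted p = 0.0908, edgeR; 0.0421 without Brain Input 1). In Retina it stood at 570, 660 and 584 CPM in the Inputs and at 494, 583 and 470 CPM in the Positives. These ranges overlapped and the log2 fold change of -0.23 ± 0.11 did not pass (adjusted p = 0.173). In Choroid the Inputs stood at 219, 171 and 219 CPM and the Positives at 94.7, 98.7 and 64.9 CPM. Here every Positive was below every Input, and the log2 fold change was -1.25 ± 0.23, or 2.38-fold lower (adjusted p = 0.00117, edgeR), and Hif1a stayed past the threshold in all 12 refits.

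Markers of other cells fell with Hif1a in Choroid. Pigment epithelium markers (6 of 6 listed lower) summed to 23340 to 39080 CPM in Input and 1821 to 3645 in Positive, melanocyte markers (5 of 5 lower) to 5321 to 10320 and 566 to 1910, and fibroblast markers (6 of 6 lower) to 3180 to 3978 and 391 to 724. Microglia markers (5 of 6 lower) summed to 812 to 976 CPM in Input and 178 to 259 in Positive. Their part in the lower Hif1a was not tested.

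Hif3a, which encodes an alpha subunit whose short forms can oppose the other alpha subunits, was scarce. In Brain it stood at 3.12, 4.35 and 6.20 CPM in the Inputs and at 1.26, 2.24 and 4.30 CPM in the Positives. The groups overlapped, and the log2 fold change of -0.80 ± 0.39 did not pass (adjusted p = 0.0836, edgeR). With the replicate number as a block, which pairs each Positive with the Input of the same lysate, the value was -0.88 (adjusted p = 0.00326), and without Brain Positive 3 it was -1.37 (adjusted p = 0.00659). In Retina it stood at 3.94, 3.50 and 6.05 CPM in the Inputs and at 11.5, 4.46 and 5.41 CPM in the Positives. Retina Positive 1 stood apart from the others, and the log2 fold change of 0.69 ± 0.39 did not pass (adjusted p = 0.228). The lowest library of all, Brain Positive 1, held 38.4 estimated counts of Hif3a, so these values carry wide counting error.

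Arnt, the shared partner, changed little with the pull-down. In Brain it stood at 33.2, 35.3 and 36.3 CPM in the Inputs and at 38.2, 39.7 and 44.7 CPM in the Positives. The groups did not overlap, and the log2 fold change of 0.22 ± 0.082 passed (1.17-fold; adjusted p = 0.0286, edgeR). It missed the threshold when Brain Input 1 (adjusted p = 0.0662), Brain Input 2 (0.0637) or Brain Positive 3 (0.125) was left out. Scaled over the genes listed in all 3 tables, the Brain groups overlapped, at 42.1 to 45.5 CPM in Input and 43.0 to 51.1 in Positive. In Retina the Inputs lay at 64.6 to 70.97 CPM and the Positives at 56.7 to 66.7 CPM (log2 fold change -0.17 ± 0.091, adjusted p = 0.221). In Choroid the Inputs lay at 61.1 to 73.9 CPM and the Positives at 57.3 to 88.1 CPM (log2 fold change 0.11 ± 0.25, adjusted p = 0.758). Neither of these differences passed, and the ranges overlapped in both tissues.

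**Figure D2:**
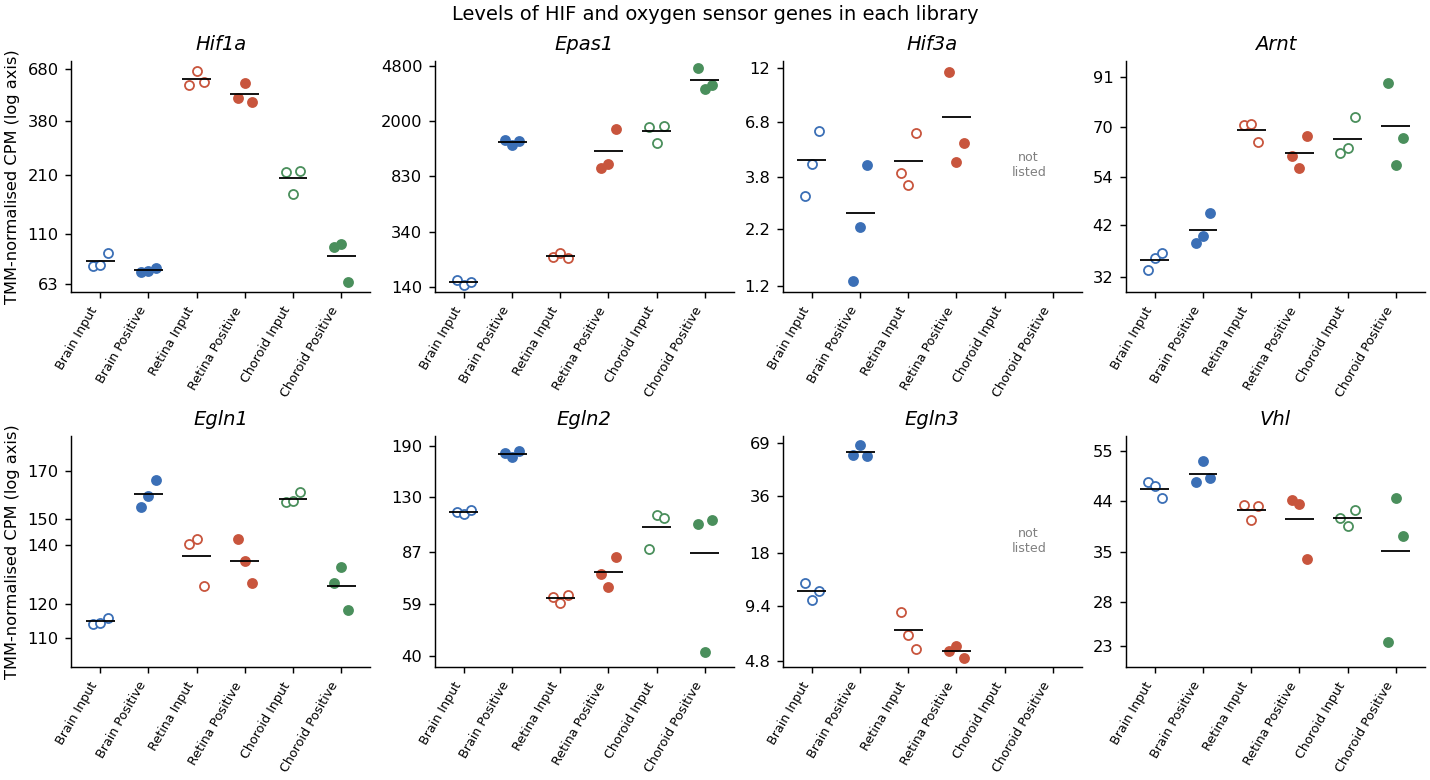
Level of each gene in every library as TMM-normalised CPM of its own tissue's table on a log axis, with open circles for Input, filled circles for Positive and a bar at the mean of 3. Epas1 is higher in all Positives than in the Inputs of the same tissue, Hif1a is highest in Retina, and Egln3 is highest in Brain Positive (58.9 to 66.7 CPM).

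The 3 sensor genes all rose in Brain. Egln3, a hydroxylase that is itself a well-known HIF target, stood at 12.5, 10.1 and 11.3 CPM in Brain Input and at 59.4, 66.7 and 58.9 CPM in Brain Positive. The groups were far apart, and the log2 fold change was 2.45 ± 0.10, or 5.47-fold (adjusted p = 1.02e-08, edgeR). Egln2, a sensor not known for induction by hypoxia, stood at 117, 115 and 119 CPM in the Inputs and at 181, 176 and 183 CPM in the Positives. All Positives were above all Inputs, and its log2 fold change was 0.62 ± 0.059, or 1.54-fold (adjusted p = 5.24e-06). Egln1, the main oxygen sensor in most cells, stood at 114, 114 and 116 CPM in the Inputs and at 155, 159 and 166 CPM in the Positives. Its groups were likewise apart, and its log2 fold change was 0.48 ± 0.061, or 1.40-fold (adjusted p = 4.58e-05). All 3 calls held in each of the 12 refits of the Brain comparison.

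In Retina none of the sensors passed. Egln3 stood at 8.79, 6.59 and 5.58 CPM in the Inputs and at 5.43, 5.81 and 5.01 CPM in the Positives. The ranges overlapped, and the log2 fold change was -0.38 ± 0.22 (adjusted p = 0.247, edgeR). Egln2 stood at 62.0, 59.5 and 62.9 CPM in the Inputs and at 73.7, 67.1 and 83.9 CPM in the Positives. Its groups did not overlap, but the log2 fold change of 0.29 ± 0.10 missed the threshold (adjusted p = 0.0634; 0.0330 without Retina Positive 2). Egln1 lay at 126 to 142 CPM in both groups (log2 fold change -0.019 ± 0.083, adjusted p = 0.885).

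In Choroid neither listed sensor passed. Egln1 stood at 157, 157 and 161 CPM in the Inputs and at 127, 132 and 118 CPM in the Positives. The groups did not overlap, yet the log2 fold change of -0.33 ± 0.19 had an adjusted p of 0.201 (edgeR), and of 0.0373 at -0.51 when only genes at or above the median level were fitted. Egln2 lay at 88.5 to 114 CPM in the Inputs, and its Positives stood at 106, 41.4 and 110 CPM. Choroid Positive 2, with 26.5 estimated counts of Egln2, stood far below the other Positives, and the log2 fold change was -0.24 ± 0.32 (adjusted p = 0.591).

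Vhl, which encodes the protein that recognises the hydroxylated proline, passed in none of the 3 tissues. It lay at 44.6 to 48.0 CPM in Brain Input and 47.9 to 52.6 in Brain Positive (log2 fold change 0.10 ± 0.068, adjusted p = 0.207, edgeR). In Retina it lay at 40.4 to 43.2 CPM in Input and 33.9 to 44.3 in Positive (-0.06 ± 0.12, adjusted p = 0.749). In Choroid it lay at 39.3 to 42.2 CPM in Input and 23.4 to 44.6 in Positive (-0.26 ± 0.32, adjusted p = 0.577). The SE was widest in Choroid, where the lowest library held 28 estimated counts of Vhl.

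The balance of the subunits was read within each library, per kilobase of exon. The ratio of Epas1 to Hif1a was 1.81 to 2.16 in Brain Input and 19.6 to 21.9 in Brain Positive. It was 0.388 to 0.418 in Retina Input and 1.82 to 3.97 in Retina Positive. It was 8.70 to 8.96 in Choroid Input and 36.0 to 58.4 in Choroid Positive. Hif1a was thus the more abundant alpha transcript in whole Retina only, and Epas1 was the more abundant in every Positive library. The sum of Epas1 and Hif1a exceeded Arnt per kilobase in every library, from 8.93 to 9.94 times in Brain Input to 77.4 to 86.4 times in Choroid Positive. This ratio leaves out Arnt2, the neuronal counterpart of Arnt. For Brain the mean CPM of Arnt2 was 248 (Input) and 158 (Positive), beside 35.0 and 40.9 for Arnt. For Retina it was 30.1 and 25.5, beside 68.7 and 61.2 for Arnt. Choroid does not list Arnt2. The ratio thus does not describe all partner transcripts, least of all in Brain. Hif3a was at most 1.06 ± 0.572 CPM per kilobase (SD, n = 3; Retina Positive), where Hif1a was at 87.5 ± 10.1.

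Among the sensors, Egln1 and Egln2 made up most of the reads per kilobase in every library. The share of Egln3 was 4.96% to 6.02% in Brain Input and 16.6% to 19.0% in Brain Positive. In Retina it was 3.52% to 5.12% in Input and 2.81% to 3.44% in Positive, a difference in the other direction whose groups did not overlap. Egln2 led in Brain Input at 53.3% to 53.7%, and Egln1 led in Retina Input at 58.8% to 62.6%. These shares were not tested on their own, since they restate the levels above.

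**Figure D3:**
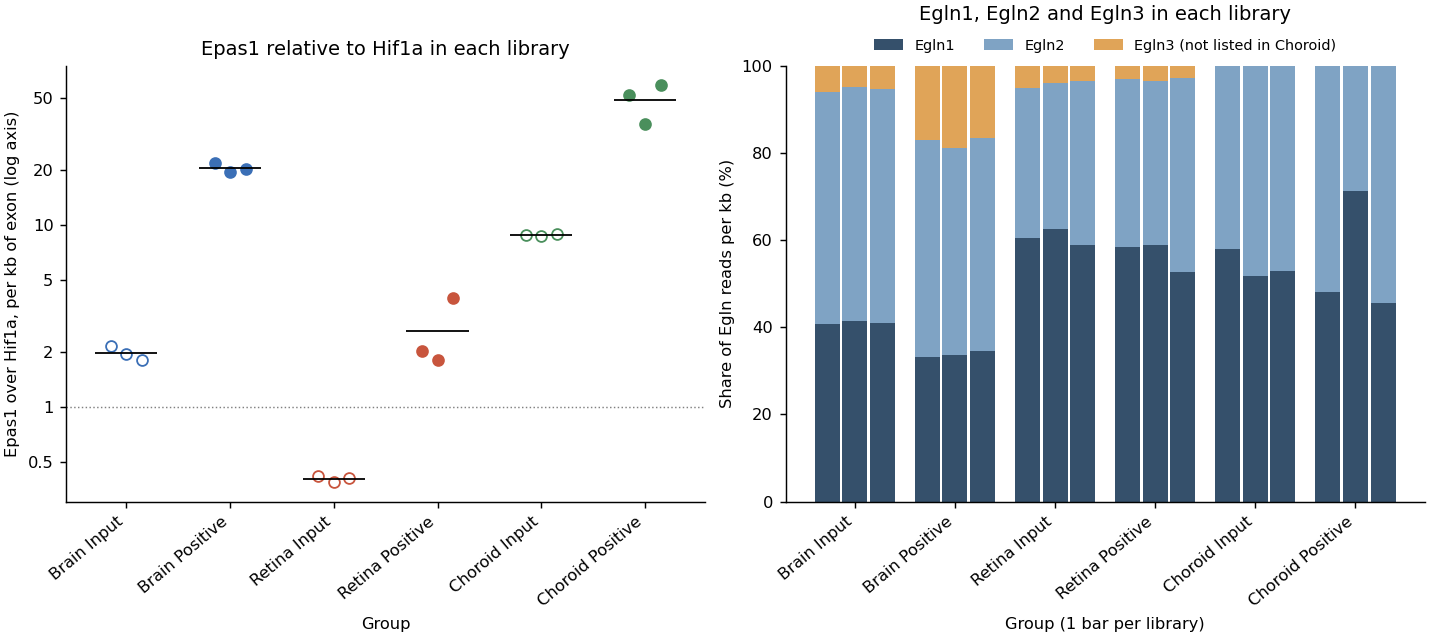
Left, the ratio of Epas1 to Hif1a per kilobase of exon in each library on a log axis, with a bar at the mean of 3 and a dotted line at 1; right, the share of Egln1, Egln2 and Egln3 among their summed reads per kilobase, 1 bar per library. Retina Input lies below 1 (0.388 to 0.418) and all other groups lie above it, and the Egln3 share is largest in Brain Positive (16.6% to 19.0%).

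Whether the enrichment itself differed between tissues was tested as an interaction in fits of 12 libraries, over genes listed in both tables. These comparisons share libraries with each other and cross tables that were filtered separately. Each fit was scaled over the genes of its pair, so its values need not equal the gap between the fits within each tissue. For Hif1a, Choroid minus Brain was -0.80, beside -1.25 within Choroid and -0.14 within Brain. For Retina minus Brain, 0 of 8 members were higher and 5 lower, where 28.9% of 12438 genes were higher and 20.0% lower (medians -0.32 for the 8 and 0.089 for all). Without adjustment of p (threshold 0.05), and by DESeq2, 1 member was higher, which was Hif3a. For Choroid minus Brain, 0 of 6 were higher and 3 lower, where 22.4% of 7461 genes were higher and 25.7% lower. For Choroid minus Retina, 0 of 6 were higher and 2 lower, where 9.49% of 7313 genes were higher and 22.3% lower. In both Choroid contrasts the count of members higher was 0 also without adjustment of p and by DESeq2. Of all calls, 59.1% were higher for Retina minus Brain and 29.9% for Choroid minus Retina. In a fit of the genes listed in all 3 tables these shares were 37% and 48.3%, and the median over all genes shifted by -0.18 and 0.15 on the log2 scale.

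Egln3 carried the widest difference. Its Positive over Input was lower in Retina than in Brain by -2.80 ± 0.21 on the log2 scale (adjusted p = 1.55e-06, edgeR), and the call held in all 16 refits that listed it. Egln1 differed in the same direction by -0.46 ± 0.10 (adjusted p = 0.00171), in all 18 refits. Egln2 differed by -0.29 ± 0.11 (adjusted p = 0.0470) and Arnt by -0.35 ± 0.13 (adjusted p = 0.0357). Those 2 calls were lost in part of the refits. Egln2 missed the threshold in 9 of 18: in the fit of all 3 tables (-0.39, adjusted p = 0.277) and without any 1 of the 3 Retina Inputs, Retina Positive 1, Brain Input 3 or any 1 of the 3 Brain Positives (-0.32 to -0.19, adjusted p = 0.0607 to 0.212). Arnt missed it in 7 of 18: in the fit of all 3 tables (-0.44, adjusted p = 0.0883) and without any 1 of the 3 Retina Inputs, Retina Positive 1, Brain Positive 2 or Brain Positive 3 (-0.33 to -0.24, adjusted p = 0.0683 to 0.166). Hif3a had the opposite sign at 1.54 ± 0.63 and missed the threshold (adjusted p = 0.0589), while the paired fit gave 1.53 with an adjusted p of 0.02003. It also passed without Retina Input 3 (1.89, adjusted p = 0.0379), Retina Positive 2 (1.71, 0.0430), Retina Positive 3 (1.82, 0.0236) or Brain Positive 3 (2.10, 0.0142).

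Epas1 was less enriched outside Brain. The difference was -0.77 ± 0.26 in Retina minus Brain (adjusted p = 0.0282, edgeR), -1.73 ± 0.23 in Choroid minus Brain (adjusted p = 2.97e-05) and -1.14 ± 0.33 in Choroid minus Retina (adjusted p = 0.0174). The first of these missed the threshold in 8 of 18 refits, each leaving out 1 library (all 3 Retina Inputs, Retina Positive 1, Brain Input 3 and all 3 Brain Positives), with adjusted p no higher than 0.0595. Hif1a differed by -0.80 ± 0.23 in Choroid minus Brain (adjusted p = 0.0120) and by -0.94 ± 0.26 in Choroid minus Retina (adjusted p = 0.0126), and did not in Retina minus Brain (-0.047 ± 0.13, adjusted p = 0.786). Egln1 differed by -0.50 ± 0.15 in Choroid minus Brain (adjusted p = 0.0168; 0.0528 without Brain Positive 3). In Choroid the Inputs held more endothelial marker RNA than in the other tissues, as given above, and the part of this in the smaller enrichment was not tested. Neuronal markers summed to 7948 to 8517 CPM in Brain Input and 3310 to 3776 in Brain Positive. In Retina their sums overlapped, at 5506 to 6038 and 4520 to 6154. Microglia sums fell in both tissues, and astrocyte and Mueller glia sums overlapped in both. The part of such RNA in the differences between Retina and Brain was not tested.

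The Positive fractions were next set against each other, again over genes listed in both tables of a pair. Retina over Brain had 3 of 8 members higher and 2 lower, where 36.1% of 12438 genes were higher and 34.1% lower. Choroid over Brain had 2 of 6 higher and 1 lower, where 25.8% of 7461 genes were higher and 24.0% lower. Choroid over Retina had 1 of 6 higher and 1 lower, where 27.3% of 7312 genes were higher and 25.6% lower. These shares of members lie near the background, so the interest is in which genes moved.

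Hif1a separated Retina from the other tissues. On a scale common to the 3 tables the Positives stood at 600 ± 79.8 CPM in Retina, 92.5 ± 19.6 in Choroid and 83.2 ± 3.06 in Brain (SD, n = 3). The log2 difference was 2.85 ± 0.12 for Retina over Brain (7.21-fold; adjusted p = 1.03e-06, edgeR) and -2.67 ± 0.22 for Choroid over Retina (adjusted p = 2.28e-05). Choroid and Brain differed by 0.25 ± 0.17, which did not pass (adjusted p = 0.266; 0.0299 without Choroid Positive 3). Photoreceptor markers move with this: they summed to 29080 to 48630 CPM in Retina Positive and 213 to 444 in Choroid Positive, and in Brain 1 of the 10 is listed, at 2.40 to 6.76 CPM. Their part in the Hif1a level of Retina Positive was not tested.

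Epas1 was highest in Choroid Positive at 4169 ± 757 CPM on the common scale, beside 1620 ± 80.3 in Brain Positive and 1429 ± 477 in Retina Positive. Choroid was above Brain by 1.48 ± 0.16 (2.78-fold; adjusted p = 0.000146, edgeR) and above Retina by 1.58 ± 0.31 (2.99-fold; adjusted p = 0.00251). Retina and Brain differed by -0.18 ± 0.22 (adjusted p = 0.497), and by -0.50 (adjusted p = 0.000229) without Retina Positive 3. Endothelial marker sums move with this order, since Choroid Positive also had the highest sum within its own table, and their part was not tested.

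Egln3 was lower in Retina Positive than in Brain Positive by -3.48 ± 0.12 (11.2-fold; adjusted p = 5.17e-07, edgeR), at 5.73 ± 0.385 beside 63.1 ± 4.61 CPM on the scale of these 2 tables. Egln2 was lower than in Brain Positive both in Retina (-1.23 ± 0.093, adjusted p = 1.60e-05) and in Choroid (-0.95 ± 0.27, adjusted p = 0.0193). The Choroid call was lost when any 1 of the 3 Brain Positives was left out, with adjusted p of 0.0563 to 0.0654. Egln1 came close in both pairs without passing, at -0.21 ± 0.087 for Retina over Brain (adjusted p = 0.0578) and -0.31 ± 0.12 for Choroid over Brain (adjusted p = 0.0548). In the first pair it passed in 3 of 12 refits: with DESeq2's size factors (-0.23, adjusted p = 0.0489), by DESeq2 (-0.23, 0.0438) and without Retina Positive 1 (-0.26, 0.0480). In the second it passed in 4 of 12: by DESeq2 (-0.33, adjusted p = 0.00541), in the fit without genes below the median level (-0.40, 0.0192) and without Choroid Positive 1 (-0.36, 0.0436) or Choroid Positive 2 (-0.37, 0.0160). Arnt was higher than in Brain Positive in Retina (0.62 ± 0.10, adjusted p = 0.000670) and in Choroid (0.86 ± 0.19, adjusted p = 0.00608). Hif3a was higher in Retina Positive by 1.50 ± 0.50 (adjusted p = 0.0271), a call lost without Retina Positive 1 (0.95, adjusted p = 0.118), Brain Positive 1 (1.17, 0.0736) or Brain Positive 2 (1.40, 0.0858), and with the replicate block (1.47, 0.0527). Vhl passed in none of the 3 pairs, though without Choroid Positive 2 it was lower in Choroid than in Brain (-0.73, adjusted p = 0.0161). Without the same library Egln2 was higher in Choroid than in Retina (0.46, adjusted p = 0.0303).

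**Figure D4:**
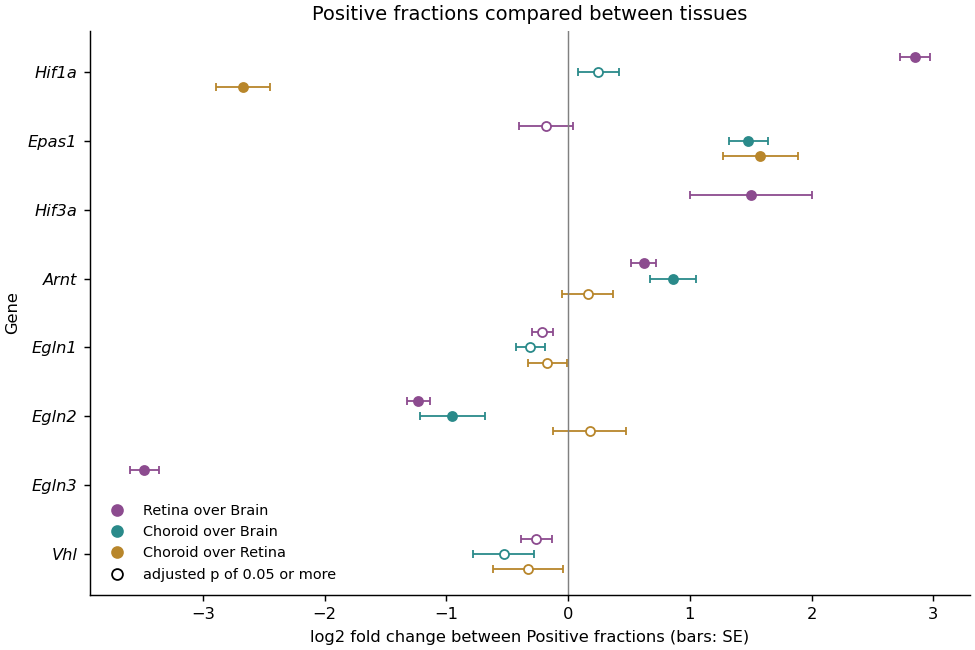
Fitted log2 fold change between the Positive fractions of each pair of tissues, with bars of 1 SE and open symbols where the adjusted p was 0.05 or more. Hif1a is set apart in Retina (2.85 over Brain, and Choroid at -2.67 against Retina), Epas1 is higher in Choroid (1.48 and 1.58), and Egln3 is lower in Retina than in Brain (-3.48).

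Whole tissues differed too. In the Inputs, Retina over Brain had 4 of 8 members higher and 2 lower, where 39.4% of 12434 genes were higher and 39.8% lower. Choroid over Brain had 3 of 6 higher and 2 lower, where 35.2% of 7461 genes were higher and 34.3% lower. Choroid over Retina had 2 of 6 higher and 1 lower, where 36.9% of 7313 genes were higher and 36.1% lower. Hif1a was higher in Retina Input than in Brain Input by 2.90 ± 0.085 (7.48-fold; adjusted p = 3.69e-10, edgeR), close to the 2.85 seen between the Positives. Epas1 was higher in Choroid Input than in Brain Input by 3.21 ± 0.15 (9.22-fold; adjusted p = 4.39e-07). Arnt was higher in Retina Input than in Brain Input by 0.98 ± 0.07 (1.98-fold; adjusted p = 3.04e-07), and Egln2 lower by -0.92 ± 0.065 (adjusted p = 2.70e-07). Egln3 was lower in Retina Input than in Brain Input by -0.67 ± 0.17 (adjusted p = 0.00429), beside -3.48 between the Positives, and the test of that gap is the interaction given above. Vhl (-0.46 ± 0.12, adjusted p = 0.00870) and Egln2 (-0.44 ± 0.13, adjusted p = 0.0139) were lower in Choroid Input than in Brain Input, calls lost without Brain Input 2 (adjusted p = 0.0559) and Brain Input 3 (0.0591) respectively. In the fit without genes below the median level Egln2 stood at -0.18 (adjusted p = 0.235). Egln2 was higher in Choroid Input than in Retina Input (0.59 ± 0.13, adjusted p = 0.00302).

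Set in order over all 6 groups on the common scale, Hif1a fell from Retina Input (811 ± 68.9 CPM) through Retina Positive and Choroid Input (215 ± 32.5) to Brain Input, Choroid Positive and Brain Positive. Choroid Positive overlapped both Brain groups, which did not overlap each other. Epas1 was highest in Choroid Positive, followed by Choroid Input, Brain Positive and Retina Positive, which overlapped as neighbours, and then by Retina Input (310 ± 15.8) and Brain Input (192 ± 7.68), each apart from its neighbour. Egln2 was highest in Brain Positive (203 ± 5.92), then in Brain Input (147 ± 1.54), and the 4 groups of Choroid and Retina followed with overlapping neighbours. Arnt was highest in Retina Input (92.2 ± 5.68), the 4 groups of Retina and Choroid overlapped as neighbours, and both Brain groups lay below them. Egln1 ran from 183 ± 13.8 CPM in Retina Input to 135 ± 7.08 in Choroid Positive. Vhl ran from 58.7 ± 2.57 CPM in Brain Input to 37.8 ± 11.5 in Choroid Positive. Of the 6 genes on this scale, these 2 had the smallest ratio of the highest to the lowest group mean.

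A list of 18 genes that regulate HIF or work with it was read beside the members. In Brain 4 of 18 rose and 7 fell, where 38.3% of all genes rose and 39.7% fell, with a median log2 fold change of -0.016 beside -0.018 over all genes. The 4 were Cited2 (0.40, a competitor for the coactivators), Tceb2 (0.36) and Rbx1 (0.25), parts of the VHL ubiquitin ligase, and Siah1a (0.25), a ligase that targets prolyl hydroxylases. Rbx1 missed the threshold without Brain Input 2 (0.20), and Siah1a without Brain Input 3 (0.24) or Brain Positive 3 (0.20). The largest decreases were Npas3 (-1.38, a neuronal relative of the alpha subunits), Usp20 (-0.97, a deubiquitinase), Wsb1 (-0.97, a ubiquitin ligase adaptor) and P4htm (-0.93, a membrane-bound prolyl hydroxylase). Another part of the ligase, Cul2, fell (-0.57) and Tceb1 did not pass (0.012), so the parts of the VHL ligase did not move one way. Arnt2, the neuronal counterpart of Arnt, fell by 0.66 (adjusted p = 0.000111, edgeR), and was named after its values were seen. Neuronal markers fell in the same libraries (8 of 8, summed 7948 to 8517 CPM in Input and 3310 to 3776 in Positive), and their part was not tested.

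In Retina 0 of the 18 rose and 3 fell, where 15.3% of all genes rose and 10.8% fell, with a median of -0.15 beside -0.034 over all genes. The count of 0 that rose was the same without adjustment of p and by DESeq2. The 3 that fell were Ahr (-0.63, adjusted p = 0.00422, edgeR), another partner of Arnt, Crebbp (-0.40, adjusted p = 0.0488), a coactivator, and Hif1an (-0.25, adjusted p = 0.0434), the asparagine hydroxylase that blocks coactivator binding. The Hif1an call was lost in the paired fit (adjusted p = 0.0670) and without any 1 of the 6 Retina libraries (log2 fold change -0.28 to -0.20). Crebbp lost its call in the paired fit (-0.41) and without any 1 of the 3 Retina Inputs, Retina Positive 1 or Retina Positive 2 (-0.46 to -0.33). In Choroid 0 of 12 listed regulators rose and 0 fell by edgeR, where 16.3% of all genes rose and 20.2% fell, with a median of -0.11. Of these 12, 6 were listed through Input alone. By DESeq2 the counts were likewise 0 and 0, and without adjustment of p (threshold 0.05) they were 0 and 3.

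A list of 40 known HIF target genes was read in the same way. In Brain 21 of 38 rose and 12 fell, beside 38.3% and 39.7% of all genes, with a median log2 fold change of 0.31 beside -0.018 over all genes. In Retina 9 of 36 rose and 4 fell, beside 15.3% and 10.8%, with medians of 0.039 and -0.034. In Choroid 5 of 27 rose and 9 fell, beside 16.3% and 20.2%, with medians of -0.33 and -0.013. The share that rose in Choroid is near that of all genes. Of the targets that fell, 1 of 12 in Brain and 5 of 9 in Choroid had reached the count of 50 in all Inputs and not in all Positives, and of those that rose, 2 of 21 in Brain and 1 of 5 in Choroid had reached it through Positive alone. Listing through 1 group did not force a difference: in Choroid 7 targets listed through Input alone did not pass, and Edn1, so listed, rose. It does depend on the level in that group, so these counts support nothing about the list. Many of these genes are also expressed without hypoxia, and Flt1 stands in the endothelial marker list as well, so the counts describe the list and not HIF activity.

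The targets that rose most in Brain were the receptor gene Flt1 (5.34 ± 0.12), the vasoconstrictor gene Edn1 (4.74 ± 0.17), the Tie2 ligand gene Angpt2 (4.69 ± 0.17) and the glucose transporter gene Slc2a1 (4.44 ± 0.092). Edn1 in Brain was listed through Positive alone, with as few as 46.6 estimated counts in Input. Slc2a1 went from 85.2 ± 7.08 CPM in Brain Input to 1846 ± 156 in Brain Positive. In Retina they were Pdgfb (5.93 ± 0.46, a pericyte recruitment factor), Edn1 (3.98 ± 0.36), Flt1 (3.79 ± 0.33) and Slc2a1 (3.05 ± 0.32). In Choroid they were Pdgfb (2.89 ± 0.21), Flt1 (2.75 ± 0.29), Angpt2 (2.07 ± 0.35) and Edn1 (1.83 ± 0.32), of which Angpt2 was listed through Positive alone. Slc2a1 was at 1230 ± 146 CPM in Choroid Input and 1292 ± 318 in Choroid Positive, a log2 fold change of 0.072 ± 0.23 that did not pass (adjusted p = 0.836, edgeR).

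Other targets fell in the pull-down. Vegfa, the ligand that vessels receive from other cells, went from 86.2 ± 3.71 to 39.2 ± 4.20 CPM in Brain (-1.14 ± 0.084), from 163 ± 13.9 to 118 ± 18.8 in Retina (-0.47 ± 0.12) and from 475 ± 70.1 to 84.7 ± 17.95 in Choroid (-2.49 ± 0.23). The largest decreases in Brain were those of the carbonic anhydrase genes Car12 (-1.92 ± 0.13) and Car9 (-1.54 ± 0.20), the neuronal glucose transporter gene Slc2a3 (-1.30 ± 0.094) and Vldlr (-1.15 ± 0.073), a lipoprotein receptor gene. Car9 was listed through Input alone, with as few as 32.1 estimated counts in Positive. In Retina they were Pfkfb4 (-0.67 ± 0.13, a regulator of glycolysis), Vldlr (-0.57 ± 0.10), Vegfa and Slc2a3 (-0.30 ± 0.091). The Retina call of Vegfa was lost without Retina Input 1 (-0.41), Retina Input 3 (-0.47) or Retina Positive 2 (-0.40), and that of Slc2a3 in the paired fit (-0.30) and without any 1 Retina library other than Retina Positive 2 (-0.33 to -0.22). In Choroid they were Car12 (-3.43 ± 0.23), Vegfa, the transferrin receptor gene Tfrc (-2.28 ± 0.33) and Vldlr (-2.17 ± 0.31). Of these, Car12, Tfrc and Vldlr were listed through Input alone, which limits what their decreases can show. The glycolytic genes Pgk1 (-1.50 ± 0.21), Eno1 (-1.45 ± 0.23) and Aldoa (-1.41 ± 0.20) fell in Choroid, while Hk1 (-0.21 ± 0.24, adjusted p = 0.532) and Ldha (0.38 ± 0.20, adjusted p = 0.149) did not pass. These 5 were named after their values were seen. The pigment epithelium, melanocyte and fibroblast markers given above fell in the same libraries, and their part was not tested.

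**Figure D5:**
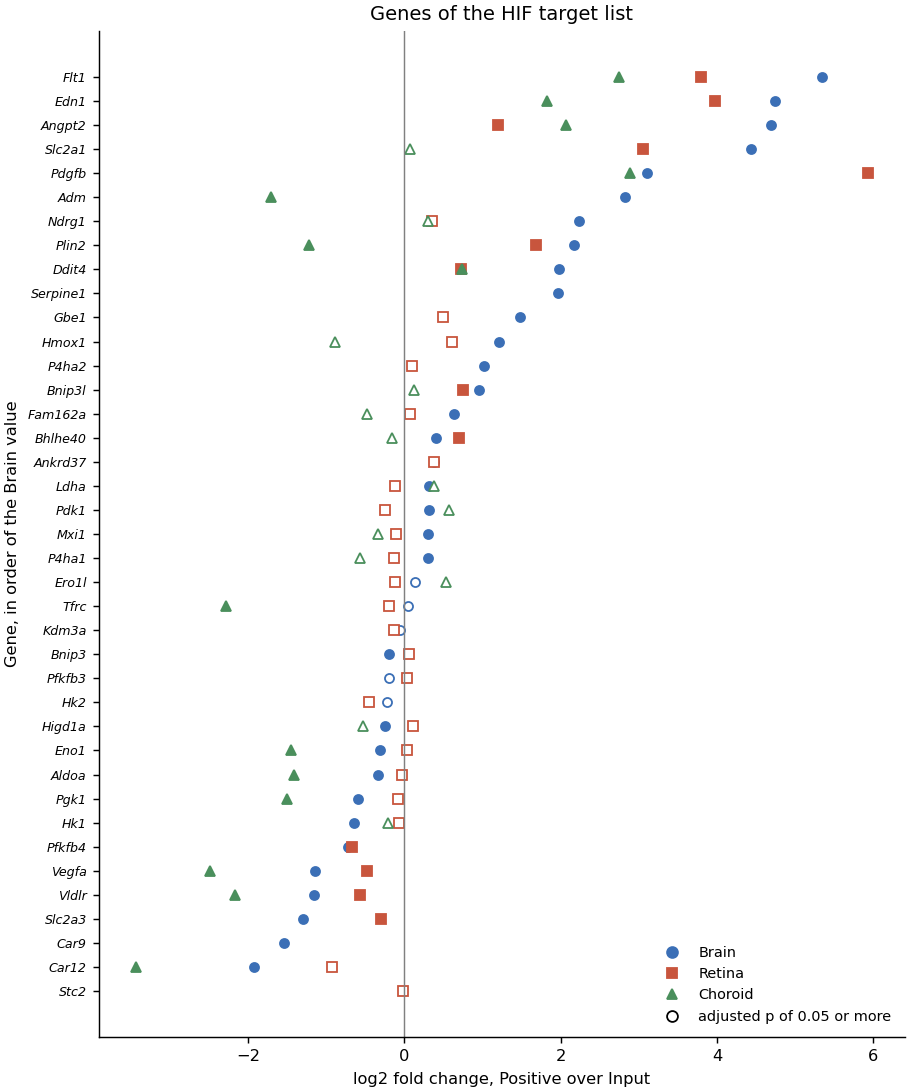
Fitted log2 fold change of Positive over Input for each listed HIF target gene in Brain (circles), Retina (squares) and Choroid (triangles), in the order of the Brain value, with open symbols where the adjusted p was 0.05 or more. The 5 genes at the top of the Brain order include Flt1 (5.34) and Slc2a1 (4.44), the latter at 0.072 in Choroid, and Vegfa lies below 0 in all 3 tissues.

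The genes whose levels over the 18 libraries were most like those of a member were ranked by Pearson's r of log2 CPM, among genes listed in all 3 tables at or above the median level. For Epas1 they were Eln (0.990), H2-Q4 (0.978) and Msn (0.977). For Hif1a they were Epb4.1 (0.985), Agpat3 (0.984) and Anp32e (0.979), and for Arnt Stag2 (0.967), Slmap (0.935) and Zfp36l2 (0.922). The sensors had looser neighbours: Acsl1 (0.860), Gdpd5 (0.821) and Sdf2 (0.805) for Egln1, and Snx17 (0.904), Map2k2 (0.895) and Psmd13 (0.873) for Egln2. For Vhl they were Atp5c1 (0.926), Cyhr1 (0.923) and Ndufb8 (0.899). The 18 points fall into 6 groups that share tissue and fraction, so each r mainly ranks likeness of the group levels and carries no test.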

How the data were processed

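RNA sequencing of 18 libraries was analysed from 3 deposited tables, 1 per tissue. Their raw columns hold estimated counts per the file headers, with fractions. Their normalized columns hold log2 values that the authors deposited, used here only to recover the authors' scaling factors. The build mm10 and the tool DESeq are named in the submitters' processing notes. Aligner, counting program and use of strand: not given in the sources used here. A gene was retained, per the file headers, at a raw value of at least 50 in all libraries of 1 fraction. The listed totals, from 713733 to 43219831 estimated counts per library, are therefore not full depths, and the low Choroid totals limit the precision there.

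Estimated counts were rounded and fitted with edgeR 4.0.16 (R 4.3.3, limma 3.58.1): TMM, filterByExpr with a minimum count of 10, quasi-likelihood F test, Benjamini-Hochberg over all genes tested, threshold 0.05. The fits were tested on simulated data. Alternatives were DESeq2 1.42.0, its size factors, no filter, a filter at the median level, an adjusted p under 0.01, a log2 fold change of at least 1, a replicate block, a fit of the genes in all 3 tables, leaving out each library, and, added after seeing the data, the authors' factors. Same-numbered Inputs and Positives come from 1 homogenate per the labels' protocols. The main fits leave this pairing out, and the replicate block takes it in. Deviations of paired libraries from the group means correlated over 0.1 in 7 of 9 pairs (0.00575 to 0.272). Between tissues the meaning of the number is not stated.

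Members and gene lists were chosen with earlier results of these data known. Named are all members, and per tissue the 4 largest increases and 4 largest decreases past the threshold in the regulator and target lists, with exceptions to a direction. For likeness, 3 genes per member were named, predicted, clone and pseudogene symbols left out.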

Additional observations from a re-analysis of the deposited data

Results flagged for a closer look

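The enrichment of Positive over Input differed between tissues for 10 pairings of a member and a tissue contrast, by the interaction test of edgeR at an adjusted p under 0.05. For Retina minus Brain these were Egln3 at -2.80, Epas1 at -0.77, Egln1 at -0.46, Arnt at -0.35 and Egln2 at -0.29 on the log2 scale. For Choroid minus Brain they were Epas1 at -1.73, Hif1a at -0.80 and Egln1 at -0.50. For Choroid minus Retina they were Epas1 at -1.14 and Hif1a at -0.94. All 10 are negative, which means a lower Positive over Input in the tissue named first. For Hif1a this is not less enrichment, since its log2 fold change within each tissue was negative. It was -0.14 in Brain, -0.23 in Retina and -1.25 in Choroid. These values come from fits scaled over the genes of 1 tissue, so they need not subtract to the differences above. The 3 contrasts share libraries, so they are not independent of one another.

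Of these, the calls of Egln3 and Egln1 in Retina minus Brain held in every refit that included the gene, and with each library left out. So did those of Epas1 and Hif1a in Choroid minus Brain and in Choroid minus Retina. Egln3 was in 16 refits, and not in the fit of all 3 tables or that at the median level. The calls of Epas1, Arnt and Egln2 in Retina minus Brain and of Egln1 in Choroid minus Brain did not.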

How the results depend on the processing

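Of 82 tests of a member in a comparison, 42 passed. Of these, 33 passed in all refits that included the gene and 9 were lost in some. In some refits 15 others passed, and 0 reversed. For the list genes and members together, 1492 alternative values kept their side of the threshold, 121 lost it and 26 gained it. Choroid Positive has the lowest totals, down to 713733 estimated counts, and members there rest on as few as 26.5, so small changes were not detectable at this depth.

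Restricting the fits to genes at or above the median level, which tests fewer genes, left 5729 genes called in Brain (10896 in the full test), 1952 in Retina (3352) and 1802 in Choroid (2767). The differences between tissues had 3473 (Retina minus Brain), 1980 (Choroid minus Brain) and 1323 (Choroid minus Retina) calls, the Positives 4607, 2250 and 2367 in the same order of pairs, and the Inputs 5168, 2788 and 2833. Members lower became 2 in Choroid, 1 in Retina over Brain in Positive and in Input, 2 in Choroid over Brain in Positive and 0 in Input. Members higher became 1 in Choroid over Brain in Positive. Hif3a and Egln3 in Retina over Brain, and Arnt and Vhl in Choroid over Brain, are not in these fits. Calls of these genes were therefore not tested again here.

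A log2 fold change of at least 1 left 4607 genes in Brain, 1170 in Retina, 2068 in Retina minus Brain, 3620 and 1999 in Retina and Choroid over Brain in Positive, and 4041, 2978 and 3062 in the 3 Input pairs. It left 2 members higher in Brain, 1 lower in each of the 3 differences, 1 higher and 0 lower in Choroid over Brain in Positive, 1 higher and 0 lower in Retina over Brain in Input, 0 lower in Choroid over Brain in Input and 1 higher in Choroid over Retina in Input. An adjusted p under 0.01 left 1733 genes in Retina and 1446 in Choroid minus Retina, and 2, 1 and 0 members lower in the 3 differences, 0 lower in Choroid over Brain in Positive and 1 in Input.

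The fit of all 3 tables called 2170 genes in Retina minus Brain, and 4152 (Positive) and 4903 (Input) in Retina over Brain. It had 2 members lower in Retina minus Brain, 1 higher in Choroid minus Retina, 1 lower in Retina over Brain in Positive and in Input, where Hif3a and Egln3 are not in the fit, and 3 lower in Choroid over Retina in Input. DESeq2's Wald test had 1 member higher in Retina minus Brain and 2 lower in Choroid over Brain in Positive.

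With the replicate number as a block, 11054 genes were called in Brain, 3085 in Retina and 2998 in Choroid. The block added Hif3a in Brain (1 member lower) and in Retina minus Brain (1 higher). It took Hif3a from Retina over Brain in Positive, and changed no other call of a member. Between tissues it joined libraries by number alone, and the meaning of that number is not stated.

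Leaving out 1 library at a time gave 10189 to 10931 calls in Brain, 1836 to 3637 in Retina, where 1836 came without Retina Input 2 and 2048 without Retina Input 1, and 2167 to 3041 in Choroid. The 3 differences gave 5281 to 6907, 3067 to 3985 and 1830 to 2716, the Positives 7652 to 9379, 2643 to 4589 and 2937 to 4220, and the Inputs 9365 to 9759, 4516 to 5624 and 4712 to 5689. Members higher ranged from 4 to 5 and lower from 0 to 1 in Brain, and higher from 1 to 2 in Retina. Retina minus Brain had 0 to 1 higher and 2 to 5 lower, and Choroid minus Brain 2 to 3 lower. In Positive, Retina over Brain had 2 to 3 higher and 2 to 3 lower, Choroid over Brain 2 to 3 higher and 0 to 3 lower, and Choroid over Retina 1 to 2 higher. In Input, Choroid over Brain had 1 to 2 lower.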
